A study of Mus musculus with 6 samples.

Results

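The platelet-derived growth factor (PDGF) system was examined in mLPS1 cells, a mouse line that the labels describe as dedifferentiated liposarcoma, a malignant tumour of fat-forming tissue. Its members here are the receptor genes Pdgfra and Pdgfrb, the ligand genes Pdgfa, Pdgfb, Pdgfc and Pdgfd, and Cspg4, the NG2 proteoglycan that often marks the same cells as Pdgfrb. They were taken by gene symbol, and all 7 were found, each on a single row, among the 14472 genes of the authors' deposited table. That table compares 3 libraries labelled with the genotype NICD knockout to 3 labelled WT, all from mLPS1. NICD is the intracellular domain of a Notch receptor, which works in the nucleus with the DNA-binding protein Rbpj. The title of the series speaks of Notch over-expression, and the sources used here do not say whether wild type mLPS1 carries an added Notch fragment, nor how the knockout line was made or whether it is 1 clone.

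PDGF chains form disulfide-linked dimers that bind and cross-link receptor tyrosine kinases. The chains PDGF-A, PDGF-B and PDGF-C can act through the alpha receptor, whereas PDGF-B and PDGF-D act through the beta receptor. PDGF-A and PDGF-B are processed inside the cell, while PDGF-C and PDGF-D are secreted in a latent form and are activated by proteases outside it. In vessels, PDGF-B from endothelial cells recruits pericytes that carry the beta receptor and NG2. In fat tissue, Pdgfra and Pdgfrb mark the stromal cells from which adipocytes arise.

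Each gene has 1 fold change, knockout over wild type, with its standard error (SE), from the authors' deposited table, and single libraries were not analysed here. The spread of a gene between libraries therefore shows only through its SE, and no statement can be made on whether the groups overlap. Group levels below were fitted from the deposited mean normalised count and fold change, taking 3 libraries in each group. Depth per library is unknown. A gene is said to rise or fall where its adjusted p from the authors' deposited table is under 0.05, and intervals are 95% Wald intervals. The library labels carry p numbers (wild type 35, 37 and 40, knockout 34, 36 and 39) but do not speak of separate cultures, so the p-values reflect differences between libraries of a group that may be technical only. As a check of the labels, the Notch feedback gene Nrarp and the Notch-driven repressor gene Heyl were 79.3-fold and 1610-fold lower in the knockout per the authors' deposited table. The comparison asks how the line labelled as lacking NICD differs from its wild type counterpart.

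Of the 7 genes, 3 rose and 3 fell in the knockout per the authors' deposited table. Pdgfrb, Cspg4 and Pdgfa fell, Pdgfb, Pdgfd and Pdgfra rose, and Pdgfc did not pass. Changes were common in this comparison: 50.5% of the 14470 tested genes passed the same threshold, 25.4% higher and 25.1% lower. Among genes whose mean lay within a factor of 1.25 of a member's own, between 51.1% (for Pdgfd) and 64.0% (for Pdgfrb) passed. With more than 1 in 2 genes of like level passing, the count of 6 is no result about these genes, and what follows describes the direction and size of each change.

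**Figure D1:**
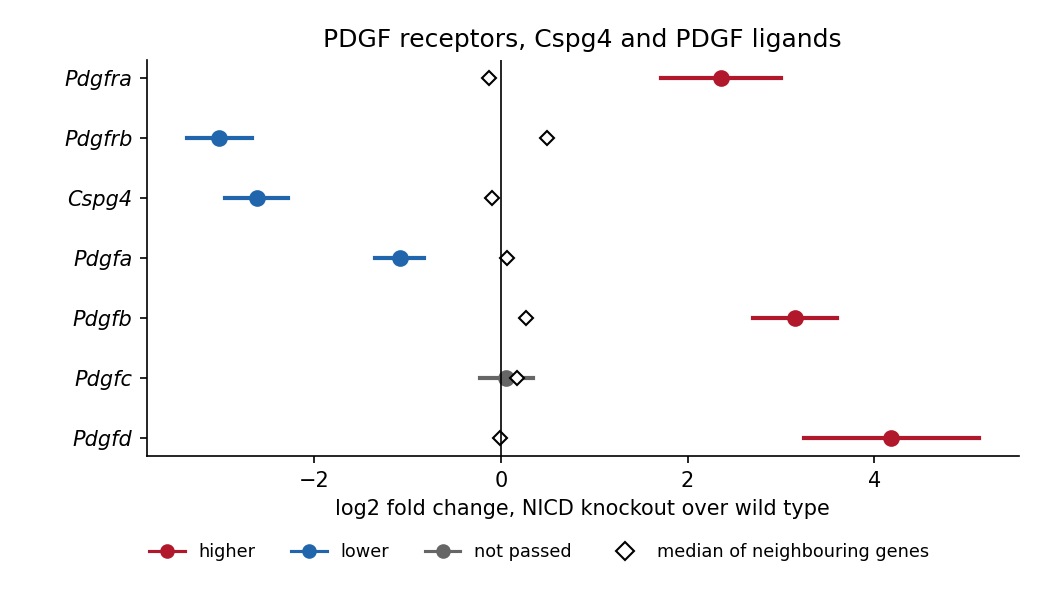
Log2 fold change of each gene, NICD knockout over wild type, per the authors' deposited table (circles, with 95% Wald intervals as bars), coloured by call at an adjusted p under 0.05. Open diamonds give the median log2 fold change of neighbouring expressed genes, which lies between -0.13 and 0.49, while the 6 called members lie between -3.02 and 4.18.

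Pdgfrb, which encodes the beta receptor of mural cells and stromal progenitors, was among the genes with the highest normalised counts in wild type cells. Shares of tested genes with a lower level, here and below, rank counts that are not divided by transcript length. Its fitted level was 16873 normalised counts in wild type, above 99.1% of tested genes, and 2081 in the knockout, above 86.2%. Per the authors' deposited table its log2 fold change was -3.02 (SE 0.18, interval -3.37 to -2.67, adjusted p = 4.33e-62). By the size of the Wald statistic it stood at rank 103 of the 7068 genes with a lower value in the knockout. Despite this fall, Pdgfrb transcripts remained well detected in the knockout. Because these are bulk libraries, fewer cells with the transcript and less transcript per cell cannot be told apart, here and below.

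Pdgfra, which encodes the alpha receptor, was scarce in both groups and moved the other way. The fitted level of Pdgfra rose from 33.6 normalised counts in wild type to 172.5 in the knockout, a 5.14-fold change. The log2 fold change per the authors' deposited table was 2.36 (SE 0.33, interval 1.72 to 3.01, adjusted p = 6.82e-12). The fitted level of Pdgfra was above 22.4% of tested genes in wild type, and in the knockout most tested genes still had a higher one. Set per kilobase of the longest annotated coding transcript, Pdgfrb exceeded Pdgfra 633.5-fold in wild type and 15.2-fold in the knockout. With the shortest coding transcript of each, these ratios were 267.4 and 6.42. The beta receptor transcript thus stayed the more abundant of the pair in both groups under either length, while the alpha receptor's share of their sum went from 0.158% to 6.17% with the longest and from 0.373% to 13.5% with the shortest.

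Cspg4 encodes NG2, a transmembrane chondroitin sulfate proteoglycan that binds PDGF-A and collagen VI and can present growth factors to their receptors. Its fitted level was 18064 normalised counts in wild type and 2939 in the knockout, and its log2 fold change per the authors' deposited table was -2.62 (SE 0.17, interval -2.96 to -2.28, adjusted p = 2.04e-49). The intervals of Cspg4 and Pdgfrb overlap, and that of Pdgfra overlaps neither. The difference between the 2 falls was not tested, since both come from the same libraries and their covariance is unknown. Of the 3 genes, Cspg4 and Pdgfrb fell by similar amounts from similar normalised counts, not set per length. The sequence upstream of Cspg4 is shown because it is the strongest fall among the members whose promoter was matched, and the capitals mark the core of the Sp1 motif, GGGCGG, here as its reverse complement. It is the part of the RefSeq window (GRCm38.p6, plus strand, chr9:56864854-56865032) that precedes the first annotated exon:

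Cspg4: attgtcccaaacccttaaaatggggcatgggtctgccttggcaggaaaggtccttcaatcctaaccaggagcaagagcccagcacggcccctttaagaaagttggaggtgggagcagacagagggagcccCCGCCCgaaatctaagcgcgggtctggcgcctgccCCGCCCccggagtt

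The 250 bases before each RefSeq start were searched on both strands for GGGCGG, for TGGGAA, the core recognised by Rbpj, and for CACGTG, an E-box bound by Hey and other basic helix-loop-helix factors. Among 13814 such windows of genes in the table, 54.8%, 20.9% and 7.91% held them. Cspg4 held GGGCGG at 120 and 85 bases before the start and neither of the others.

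Among the ligands, Pdgfa was the most abundant per kilobase in both groups and fell in the knockout. Its fitted level went from 2878 to 1357 normalised counts. The log2 fold change of Pdgfa per the authors' deposited table was -1.08 (SE 0.13, interval -1.35 to -0.82, adjusted p = 7.60e-15), the smallest change among the members that passed. It did not exceed 2-fold by a test of that size (adjusted p = 1 in a Wald test on the values of the authors' DESeq2 table).

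Pdgfb, the chain that binds both receptors, rose from a fitted 97.5 to 864.9 normalised counts, or 8.87-fold. Per the authors' deposited table the log2 fold change of Pdgfb was 3.15 (SE 0.23, interval 2.70 to 3.60, adjusted p = 3.00e-41), and its Wald statistic stood at rank 157 of the 7402 genes with a higher value in the knockout. In the knockout its fitted level was above 67.3% of tested genes, against 29.6% in wild type. Pdgfrb, the gene of a receptor for this chain, moved in the opposite direction.

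Pdgfd, whose product is a latent ligand of the beta receptor, had the largest fold change of the members and, per kilobase, the lowest level in wild type. Its fitted level was 8.18 normalised counts in wild type and 148.6 in the knockout, and the log2 fold change per the authors' deposited table was 4.18 (SE 0.48, interval 3.24 to 5.12, adjusted p = 4.01e-17). The intervals of Pdgfd and Pdgfb overlap. The size of the Pdgfd change is the least certain of the 7, because it rests on a wild type level of few counts. Pdgfc, the latent ligand of the alpha receptor, had fitted levels of 553.6 and 576.5. Its log2 fold change per the authors' deposited table was 0.06 (SE 0.15, interval -0.23 to 0.34, adjusted p = 0.764). Its interval overlaps that of no other ligand.

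In the windows upstream of the ligands, TGGGAA stood once before Pdgfd, which rose, and once before the more downstream of 2 listed starts of Pdgfa, which fell. Both are shown with that core in capitals, because the same letters occur upstream of members that moved in opposite directions. The core of Pdgfa lies after an annotated exon of that gene, so it is upstream of the later start only. The Pdgfd window (GRCm38.p6, plus strand, chr9:6168236-6168485) holds it as its reverse complement, 56 bases before the start, and the Pdgfa stretch (minus strand, chr5:138994282-138994306) holds it 13 bases before the start:

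Pdgfd: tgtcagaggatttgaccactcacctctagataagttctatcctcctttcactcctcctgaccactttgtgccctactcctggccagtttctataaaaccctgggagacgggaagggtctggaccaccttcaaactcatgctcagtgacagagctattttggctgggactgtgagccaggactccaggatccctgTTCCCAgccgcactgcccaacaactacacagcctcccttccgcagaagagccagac

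Pdgfa: gtagcctgggacTGGGAAgggtggg

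The windows of Pdgfra and Pdgfc held none of the 3 motifs, and no member's window held CACGTG. Both Pdgfa windows also held GGGCGG, in the more upstream window within an annotated exon. Windows were matched for 5 of the 7 genes, all but Pdgfb and Pdgfrb. A match of these letters is a description of the sequence only.

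The order of the genes by fitted level per kilobase of the longest coding transcript changed between the groups. In wild type it ran Pdgfrb (3111 normalised counts per kilobase), Cspg4 (2224), Pdgfa (1397), Pdgfc (157.2), Pdgfb (33.1), Pdgfra (4.91) and Pdgfd (2.61). In the knockout the order was Pdgfa (659.0), Pdgfrb (383.7), Cspg4 (361.9), Pdgfb (293.8), Pdgfc (163.7), Pdgfd (47.5) and Pdgfra (25.2). Pdgfa thus came first and Pdgfb passed Pdgfc. With the shortest coding transcript, Pdgfa (2236 per kilobase) and Cspg4 changed places in wild type and the knockout order was the same. Whether neighbours in these orders differ beyond the spread between libraries was not tested, as no error of a group level is known. The 7 levels spanned a wider range in wild type than in the knockout, since the most abundant genes fell and the scarcest rose.

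**Figure D2:**
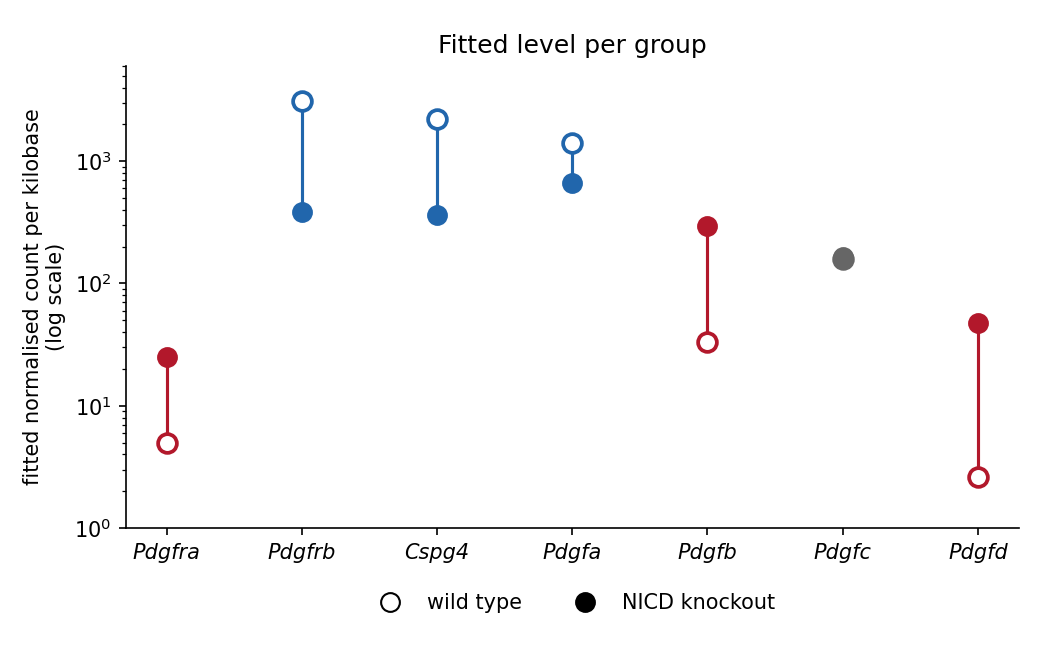
Fitted normalised count per kilobase of the longest coding transcript (log axis) for each gene in wild type (open circles) and the NICD knockout (filled circles), with no error shown because single libraries were not analysed. The 7 genes lie between 2.61 and 3111 in wild type and between 25.2 and 659.0 in the knockout.

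The make-up of the ligand pool moved with these changes. Pdgfa made up 87.9% of the summed ligand level per kilobase in wild type and 56.6% in the knockout, while Pdgfb went from 2.08% to 25.2%. Pdgfc went from 9.89% to 14.1% and Pdgfd from 0.164% to 4.08%. With the shortest coding transcripts, Pdgfb made up 1.36% in wild type and 18.4% in the knockout. The summed ligand level was 1590 per kilobase in wild type and 1164 in the knockout, whereas the summed level of both receptors was 3116 and 408.9. These are shares of transcripts and not of protein.

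The SE of each member was set beside the part of it that counting alone would give at its fitted levels. For Pdgfrb and Cspg4 the deposited SE was 9.24 and 10.5 times that part, so counting made up a small part of their error. For Pdgfd the factor was 1.60 and for Pdgfra 2.09. The SE of Pdgfrb was 0.18 and the median over the 178 genes within a factor of 1.25 of its mean was 0.13, both per the authors' deposited table. For Pdgfd these were 0.48 and 0.33 over 493 genes, and for Pdgfa 0.13 and 0.13 over 1060. The SEs of Pdgfrb and Pdgfd thus lay above the median of genes of like level, and that of Pdgfa at it. Those of Cspg4 (0.17 and 0.13), Pdgfb (0.23 and 0.17) and Pdgfra (0.33 and 0.29) also lay above. That of Pdgfc lay below (0.15 and 0.16). Like level here means a like mean over both groups, not a like level in each.

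**Figure D3:**
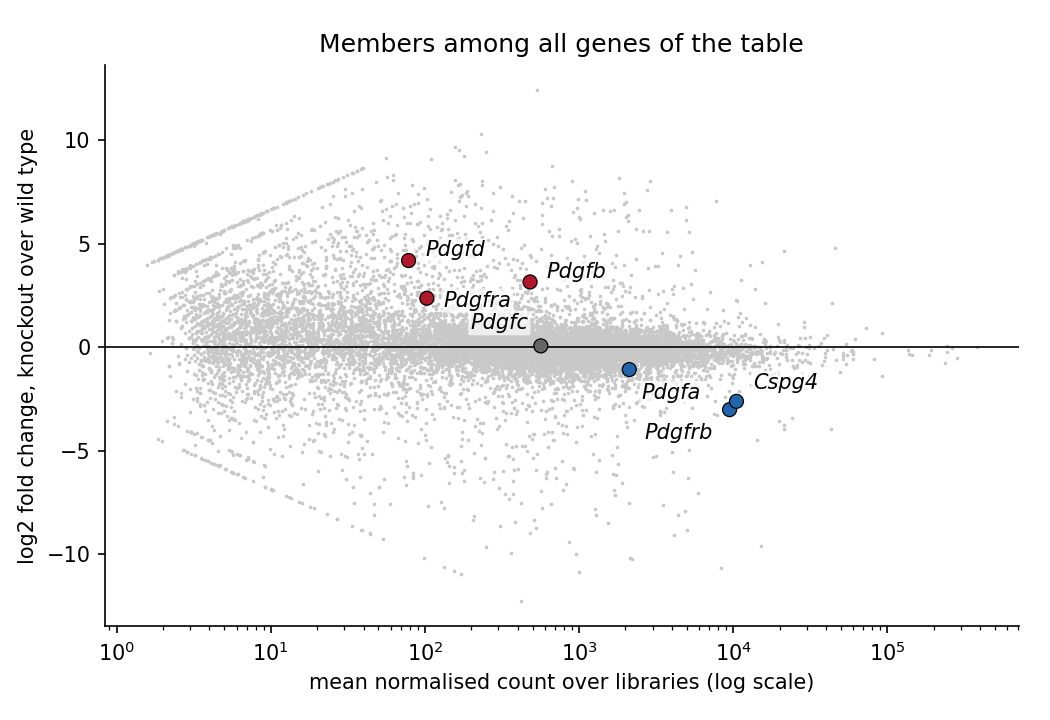
Log2 fold change, NICD knockout over wild type, against the mean normalised count (log axis) for all 14472 genes of the authors' deposited table (grey), with the 7 genes marked by call (red higher, blue lower, grey not passed). The 3 members that fell have means of 2118 or more, and the 3 that rose have means of 481.2 or less.

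Neighbouring genes were examined because stretches of the genome can shift together in a cell line. The median log2 fold change of up to 20 expressed protein-coding neighbours lay between -0.13 (Pdgfra) and 0.49 (Pdgfrb). With that median subtracted, all 6 changes kept their direction and call, and Pdgfc again did not pass. Pdgfrb stood against its surroundings: 11 of its 20 neighbours rose and 3 fell per the authors' deposited table, and the nearest expressed one on one side, the kinase gene Camk2a, had a log2 fold change of 4.21. Around Cspg4, 8 of 20 neighbours fell and 4 rose, and both nearest expressed ones, Lingo1 and Snx33, fell with log2 fold changes of -2.17 and -1.04 per the authors' deposited table. Both nearest expressed neighbours of Pdgfc rose per the authors' deposited table, Gask1b by 1.32 and Ctso by 2.14 on the log2 scale. The corresponding neighbours of Pdgfd, Casp12 and Dync2h1, fell per the authors' deposited table with log2 fold changes of -0.68 and -0.72. Antisense transcripts are annotated over Pdgfra, Pdgfa, Pdgfb and Pdgfc, and the protein-coding gene Ddi1 lies over Pdgfd on the opposite strand. Further, the sources used here do not say whether the counting used strand, so reads of the 2 strands may not be told apart there.

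Markers of other cells that carry these receptors were read beside the members. Over all tested genes, 25.1% fell and 25.4% rose. Of 17 pericyte and mural cell markers, 16 were tested, and 14 fell and none rose per the authors' deposited table. Their median log2 fold change was -5.50, or -4.59 with the 3 genes fitted below 1 normalised count in the knockout set at that floor, beside 0.02 over all tested genes. Mcam, a mural adhesion molecule, went from a fitted 8051 to 121.1 and Ndufa4l2, a pericyte-enriched mitochondrial protein gene, from 9964 to 21.9. The summed fitted level of the 16 markers was 177905 in wild type and 11276 in the knockout, so these markers moved with Pdgfrb and Cspg4, and their part in those falls was not tested. Des, chosen after its value was seen, also fell, with a log2 fold change of -0.52 per the authors' deposited table. Of 12 fibroblast and mesenchymal progenitor markers, 7 were tested. Ly6a, Dcn and Col1a2 rose and Col1a1 and Col3a1 fell per the authors' deposited table. The fitted level of Col1a1 went from 30866 to 8050 normalised counts and that of Col3a1 from 13525 to 1423. That of Ly6a went from 211.3 to 10083, whereas Dcn and Col1a2 stayed below 100. Endothelial markers, of which 5 of 8 were tested, had a summed fitted level of 185.5 in wild type and 138.5 in the knockout. Egfl7 made up most of both sums and fell from a fitted 145.3 to 92.7 (adjusted p = 0.0433 per the authors' deposited table). The other tested endothelial markers did not pass. Pecam1 and Cdh5, which define endothelium, had means of 10.9 and 21.8 normalised counts. Of 8 immune markers 5 were tested, with Cd68 and Lyz2 higher per the authors' deposited table, while the pan-leukocyte gene Ptprc had a mean of 8.73. Of 7 oligodendrocyte progenitor markers, included because those cells also carry Pdgfra and Cspg4, Ptprz1 and Vcan were tested. Vcan did not pass (log2 fold change -0.50), and Ptprz1 fell per the authors' deposited table from a fitted 18.3 to below 1 normalised count.

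Genes that carry the signal of activated PDGF receptors moved in both directions. Of 40 tested genes, 16 fell and 11 rose per the authors' deposited table, beside 25.1% and 25.4% of all tested genes. Among the 10479 tested genes with a mean of at least 100, 3164 fell and 2554 rose. The median log2 fold change of the list was -0.05, beside 0.02 over all tested genes. The kinase gene Akt1 fell 2.54-fold and Gab1, a docking protein gene, fell 4.06-fold per the authors' deposited table. The adaptor genes Nck2 and Grb2 moved apart per the authors' deposited table, Nck2 with a log2 fold change of -1.41 and Grb2 with 0.81. So did the Ras activator genes Sos1 and Sos2, at -1.19 and 1.34 per the authors' deposited table. Shc1, Plcg1, Src and Pik3ca, direct partners of the receptors or their subunits, did not pass. Their log2 fold changes were -0.10, -0.06, -0.01 and 0.29 per the authors' deposited table. Other genes of this list did pass. Pik3r1, Ptpn11 and Fyn fell (-1.12, -0.66 and -0.61) and Rasa1 rose (0.60) per the authors' deposited table. The genes from Shc1 on were picked out once their values were known.

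Inhibitors of receptor signalling were mostly lower. Of 18 tested genes, 12 fell and 5 rose per the authors' deposited table, beside 25.1% and 25.4% of all tested genes. The median of the list was -0.98. Spry1, a feedback inhibitor of the Ras pathway, went from a fitted 749.7 to 27.4 normalised counts, with a log2 fold change of -4.77 (SE 0.26, adjusted p = 3.30e-73) per the authors' deposited table. Spry4, of the same family, and Cblb, a ubiquitin ligase gene that directs receptors to degradation, fell 4.19-fold and 4.58-fold per the authors' deposited table. Ptpn2, a phosphatase gene, rose 1.93-fold per the authors' deposited table. Spry genes are also outputs of receptor signalling, so the list does not measure inhibition alone.

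Partners of the PDGF receptors had 10 of 18 tested members lower and 4 higher per the authors' deposited table. Over all tested genes 25.1% were lower and 25.4% higher. The median of the list was -0.55. Itgb3, the integrin subunit that associates with the beta receptor, fell 8.38-fold per the authors' deposited table. S1pr1, a sphingosine phosphate receptor gene, fell 7.16-fold per the authors' deposited table. The receptor tyrosine kinase genes Fgfr1 and Egfr fell 4.14-fold and 4.62-fold per the authors' deposited table, so Pdgfrb was not the only growth factor receptor gene that was lower. Slc9a3r1, a scaffold gene that binds the receptor tail, rose 1.81-fold per the authors' deposited table. Slc9a3r2, of the same list and picked out once its value was known, fell 3.09-fold per the authors' deposited table. Lrp1, a coreceptor of the beta receptor, did not pass, with a log2 fold change of 0.18 per the authors' deposited table, and was picked out once its value was known.

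The enzymes that mature the ligands had 6 of 8 tested members lower and none higher per the authors' deposited table. Over all tested genes 25.1% were lower and 25.4% higher. The median of the list was -0.76. Furin, the convertase gene for the A and B chains, went from a fitted 5920 to 2255 normalised counts, with a log2 fold change of -1.39 (SE 0.12, adjusted p = 2.40e-28) per the authors' deposited table. Plat, which encodes the protease that activates PDGF-C, fell 2.17-fold per the authors' deposited table. Plau, whose product can activate PDGF-D, fell with a log2 fold change of -0.40 per the authors' deposited table, picked out once its value was known. Serpine2, which encodes an inhibitor of these proteases, fell 4.66-fold per the authors' deposited table. St14, which encodes another protease linked to PDGF-D and was picked out once its value was known, had a higher value in the knockout at a mean of 11.5 and did not pass (adjusted p = 0.0647 per the authors' deposited table).

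Genes that PDGF or serum induces within hours in cultured fibroblasts did not move as 1 block. Of 27 tested, 11 fell and 6 rose per the authors' deposited table, beside 25.1% and 25.4% of all tested genes. The median of the list was -0.32. Has2, a hyaluronan synthase gene, went from a fitted 1406 to 17.7 normalised counts, a log2 fold change of -6.31 (SE 0.26) per the authors' deposited table. Dusp5, which encodes a phosphatase of the kinase Erk, and Egr3 fell 3.75-fold and 3.24-fold per the authors' deposited table. Ccl2, a chemokine gene that inflammatory signals also induce, Sgk1 and Plk2 rose 7.06-fold, 6.47-fold and 5.87-fold per the authors' deposited table. Dusp6, Fosl1 and Myc, picked out once their values were known, did not pass, at log2 fold changes of 0.01, 0.10 and 0.21 per the authors' deposited table.

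**Figure D4:**
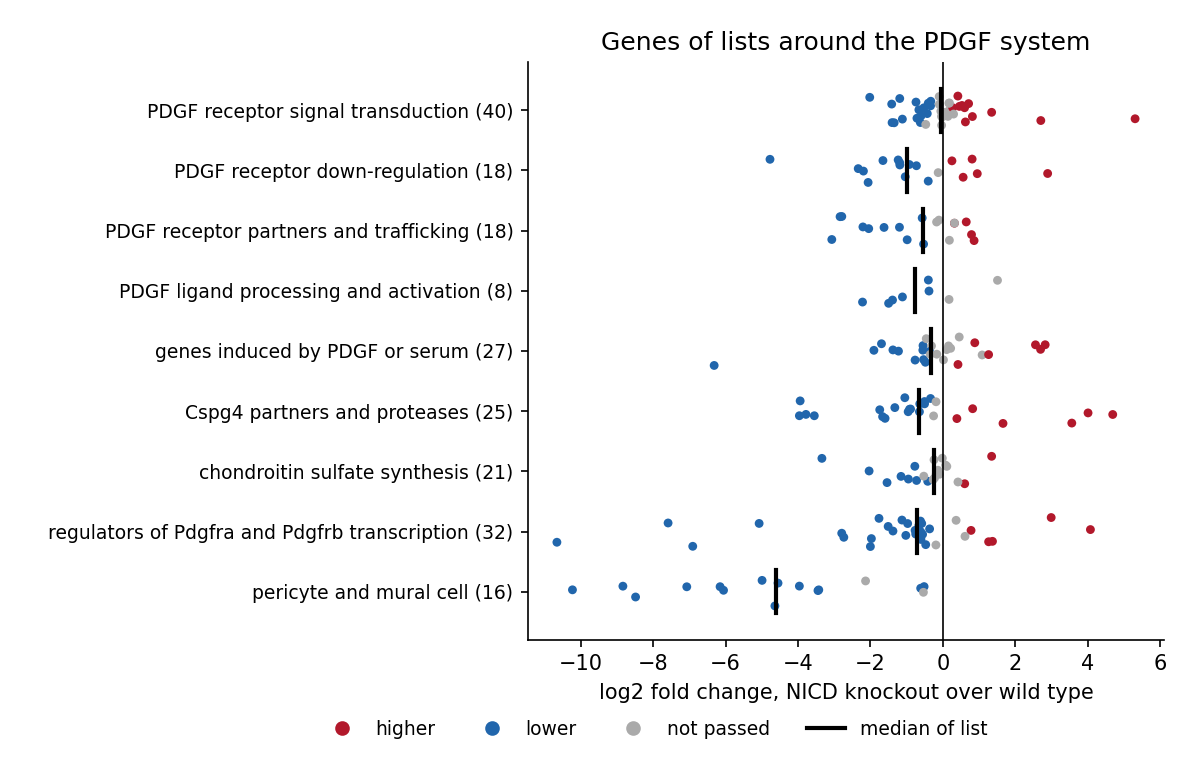
Log2 fold change, NICD knockout over wild type, of every tested gene (points, spread vertically for sight only) in 9 lists, with the number tested in brackets and genes fitted below 1 normalised count in a group set at that floor. Black bars are list medians, which lie at -0.05 for signal transduction, -0.98 for down-regulation and -4.59 for pericyte and mural cell markers.

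The binding partners of NG2 and the proteases that shed it had 17 of 25 tested members lower and 6 higher per the authors' deposited table. Over all tested genes 25.1% were lower and 25.4% higher. The median of the list was -0.65. The genes of its ligand collagen VI fell with Cspg4: Col6a1, Col6a2 and Col6a3 were 13.7-fold, 15.6-fold and 11.7-fold lower per the authors' deposited table. Itga4, an integrin gene whose product works with NG2 in melanoma cells, fell 15.4-fold per the authors' deposited table. Lgals3, the gene of the NG2-binding lectin galectin-3, rose from a fitted 5346 to 16855 normalised counts. Mmp9 and Ezr also rose per the authors' deposited table, 16.0-fold and 25.7-fold, from fitted levels of 9.08 and 5.37.

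Enzymes that build the chondroitin sulfate chains carried by NG2 had 8 of 21 tested members lower and 2 higher per the authors' deposited table, and their median was -0.25. Called genes were thus no more common in this list than over all tested genes (50.5%). Csgalnact1, which starts the chain, fell from a fitted 1272 to 125.6 normalised counts, with a log2 fold change of -3.34 (SE 0.21, adjusted p = 1.29e-54) per the authors' deposited table. The polymerase gene Chsy1 and the sulfotransferase gene Chst11 fell 2.23-fold and 4.11-fold per the authors' deposited table. Ugdh, which makes a sugar precursor of the chains, rose 1.52-fold per the authors' deposited table.

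Transcription factors linked to the receptor genes or to the mesenchymal and mural lineages were mostly lower. Of 32 tested, 24 fell and 5 rose per the authors' deposited table, beside 25.1% and 25.4% of all tested genes. The median of the list was -0.71. The list holds the Notch targets Hey1, Hey2, Heyl and Hes1, which fell. Ebf1, a factor of stromal and mural cells, fell 3.93-fold per the authors' deposited table. Klf4, a factor of smooth muscle and stem cells, rose from a fitted 34.1 to 572.8 normalised counts, and Prrx2, a mesenchymal homeobox gene, rose 7.92-fold per the authors' deposited table. Foxf2, which marks some pericytes, and Rbpj rose 2.39-fold and 2.58-fold per the authors' deposited table. Pdgfrb and Cspg4 thus fell together with most of this list, while 5 of its 32 genes rose as Pdgfra, Pdgfb and Pdgfd did. The list was chosen with earlier results of these data known, and whether its factors act on the members was not tested.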

How the data were processed

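RNA of 6 mLPS1 libraries was compared by genotype, 3 per group. Salmon, DESeq2 and the build mm39 are named, per the submitters' processing notes, without versions or settings. Per the file headers, the authors deposited the average size-factor-normalised count of each gene (a signal that is never negative), the log2 fold change with its SE on the log2 scale, the Wald statistic (a score), the p-value and its adjusted form. Recomputing the last 3 from the others gave differences of at most 1.56e-13. Knockout over wild type is the direction stated by the table's name. Of 14472 rows, 2 have no p. Calls follow the adjusted p of the authors' DESeq2 output, and no edgeR test was fitted although one was planned, since single libraries were not analysed here. The members, 9 gene lists and 5 marker lists were chosen with earlier results of these data known. Lists are described by counts and medians, and no list was tested.

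Genes named besides the members are drawn from up to 4 genes with the smallest p in each direction of each list, unless stated as chosen after their values were seen, and some of these genes are not reported here. Intervals are the log2 fold change plus or minus 1.96 SE. Fitted group levels assume 3 libraries per group. The counting part of an SE takes normalised counts as reads. Neighbours are 10 protein-coding genes on each side with a mean of at least 100, ordered by GENCODE M21 (GRCm38), which matched 99.89% of rows by identifier and also gave transcript lengths (basic coding transcripts). As the authors' build is mm39, GRCm38 coordinates are printed only for RefSeq promoter sequences. Alternatives were Bonferroni adjustment, adjustment over genes with a mean of at least 10 or 100, a test beyond 2-fold, centring on the median gene, a threshold of 0.01 and neighbour subtraction. Transcript length was varied as an alternative chosen after seeing the data. The Wald, adjustment and neighbour steps were tested on simulated data. Python 3.11.15, numpy 2.4.6, pandas 2.3.3, scipy 1.17.1 and matplotlib 3.10.9 were used.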

Additional observations from a re-analysis of the deposited data

How the results depend on the processing

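Under 8 settings the 7 members gave 55 values, of which 54 kept their call. The settings vary the handling of the finished comparison, and no step from reads to counts was varied. Most of them could hardly change a call, since each called member had an adjusted p of 6.82e-12 or less per the authors' deposited table. Pdgfc, called in no setting, changed sign with its neighbours' median subtracted (-0.11). The call that was lost was Pdgfa, whose log2 fold change of -1.08 did not pass a test of a change beyond 2-fold. Pdgfd has no value where genes with a mean under 100 were left out. Of all genes, 1516 were higher and 1659 lower under Bonferroni adjustment, and 930 and 676 beyond 2-fold, each by the construction of a stricter test. At an adjusted p under 0.01, the higher genes numbered 2 for receptor down-regulation, 1 for chondroitin sulfate synthesis and 1 for immune markers, and 0 endothelial markers were lower. With genes of a mean of at least 100, the higher genes numbered 3 for other class III receptors and ligands, 1 for chondroitin sulfate synthesis and 1 for fibroblast markers, and 0 oligodendrocyte progenitor and 0 immune markers were lower, as fewer genes were tested. No member stands on more than 1 row, so the choice of row was not varied. Leaving out libraries and other count tools were not run, since single libraries were not analysed here. No paired analysis was possible because the table gives no values per library. The p numbers of the groups are adjacent (34 and 35, 36 and 37, 39 and 40), and the labels do not say whether they mark pairs.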

Other observations

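A list of other class III receptors, the related VEGF receptors and their ligands had 9 of 14 tested genes called, beside 50.5% over all tested genes. Csf1, the ligand gene of the macrophage growth factor receptor, rose from a fitted 2128 to 20262 normalised counts, a log2 fold change of 3.25 (SE 0.20) per the authors' deposited table, while its receptor gene Csf1r, which lies beside Pdgfrb in the genome, had a mean of 21.7 and did not pass (0.11, SE 0.90). Flt1, a VEGF receptor gene, fell 20.4-fold and its ligand gene Pgf fell 10.5-fold per the authors' deposited table. Of 14 tested genes of this list, 5 rose and 4 fell per the authors' deposited table, and their median was 0.18.

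Genes that share a name with the members but lie outside them were looked up after their values were seen. Pdgfrl, a receptor-like gene without a kinase, fell from a fitted 234.7 to 31.0 normalised counts, with a log2 fold change of -2.92 (SE 0.32) per the authors' deposited table, whose interval of -3.55 to -2.30 overlaps that of Pdgfrb. Cspg4b fell, with a log2 fold change of -2.75 (SE 1.02), and Cspg5 rose at 2.33 (SE 0.92), both at means under 10 normalised counts per the authors' deposited table.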
